A study of Mus musculus with 12 samples.

Results

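The BCL2 family decides whether a B cell lives or dies at its mitochondria, and 10 of its genes were followed here in mouse germinal centre (GC) B cells and plasmablasts. They were chosen by gene symbol, as the rows of the gene count table whose Entrez gene IDs carry those symbols. All 10 were found among 27179 gene IDs. Pro-survival proteins are encoded by Bcl2, Bcl2l1 (BCL-XL), Mcl1, Bcl2a1b and Bcl2a1d (2 copies of the gene for A1, also called BFL-1). The BH3-only killers are encoded by Bcl2l11 (BIM), Bbc3 (PUMA) and Pmaip1 (NOXA), and the effectors by Bax and Bak1. All 10 passed the filter on low counts, Bcl2a1d only through its GC libraries.

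Polyadenylated RNA was sequenced from 12 libraries in 6 groups of 2 pools, all from C57BL/6 mice immunised with NP-KLH. The Myb knockout mice carried Myb fl/fl with CD23-cre T/+, and their controls carried Myb fl/fl with no cre, so the loss of c-Myb and the presence of the cre cannot be told apart. The Moz knockout mice carried Moz fl/fl with AID-cre T/+, and their controls carried AID-cre T/+ alone, so that cre is shared by both groups. Moz is the histone acetyltransferase encoded by Kat6a. Plasmablasts came from Myb knockout mice (9 mice in all) and Myb controls (13 mice) on day 5 of the secondary response, after a boost. GC B cells came from Myb knockouts and controls (5 mice each) on day 12, and from Moz knockouts (14 mice) and Moz controls (11 mice) on day 7. Pools held 2 to 8 mice, whose ages were not given in the sources used here. CD23-cre acts in mature B cells before they enter a GC, and AID-cre acts in activated and GC B cells. Knockout and control pools of the same number shared their experiment dates, whereas plasmablasts and GC B cells came from different dates.

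As background, BAX and BAK permeabilise the outer mitochondrial membrane, and the pro-survival proteins hold them and the BH3-only proteins in check. GC B cells express little BCL2 and depend on MCL1, while plasma cells also rely on MCL1. BIM binds every pro-survival member, and PUMA does likewise. NOXA prefers MCL1 and A1, and both PUMA and NOXA are transcribed under p53.

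Libraries held 8285934 to 24801297 counts. Immunoglobulin genes took 65.0% to 70.0% of the counts in plasmablast libraries, against 1.59% to 3.03% in the Myb GC libraries and 6.06% to 9.16% in the Moz GC libraries. Levels are given as scaled CPM, which are counts per 1000000 library counts after edgeR's TMM factors. The 8 GC markers summed to 63.5 to 76.4 scaled CPM in plasmablasts and 1121 to 1994 in GC libraries. The 8 plasmablast markers summed to 105041 to 143856 in plasmablasts and 926 to 7184 in GC libraries. No call was made for the targeted genes: Myb had an edgeR log2 fold change of -0.05 (SE 0.24) in Myb knockout over control GC B cells and of -0.49 (SE 0.29) in plasmablasts (3.11 and 3.10 scaled CPM in knockout and 4.13 and 4.64 in control pools, with no overlap), and Kat6a had 0.04 (SE 0.38) in Moz knockout over control GC B cells, each with an edgeR adjusted p of 1. Counts over a whole gene include exons outside a floxed part, so these values check nothing. One library goes against its label. Pool 1 of the Myb knockout GC B cells is labelled as females only, yet it had 67.2 unscaled CPM of the Y-linked gene Ddx3y, against 17.7 in its control pool, which includes a male, and 0.323 in knockout pool 2. Where a member's printed value turned its sign or moved by over 1.5 times without this library, both values are given.

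The largest differences among the 10 genes lay between plasmablasts and GC B cells. These groups differ in cell type, day and date, and the plasmablasts came after a boost, which cannot be told apart. In control mice, Bcl2, Bcl2l1, Mcl1 and Bcl2l11 were higher in plasmablasts after TMM scaling, whereas with library size alone, without those factors, Bcl2 did not pass and the other 3 were lower. Both A1 copies and Bak1 were lower in plasmablasts under either scaling. In edgeR's quasi-likelihood test, 7 of the 10 members passed an adjusted p of 0.05 (4 higher, 3 lower), beside 53.2% of all 13131 genes tested (25% higher, 28.1% lower). In Myb knockout mice, which share no library with the controls, 8 members passed (5 higher, 3 lower), beside 51.6% of genes (24.4% higher, 27.2% lower). These shares are so high that the count of members called says little by itself. The size of each change is given below, and these sizes were set only against the median gene. All 10 members had the same sign in both comparisons, as did 92% of all genes. Of the members, 7 passed in both. Bcl2a1d is among the 3 lower in each count, although its place there follows from the filter.

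**Figure D1:**
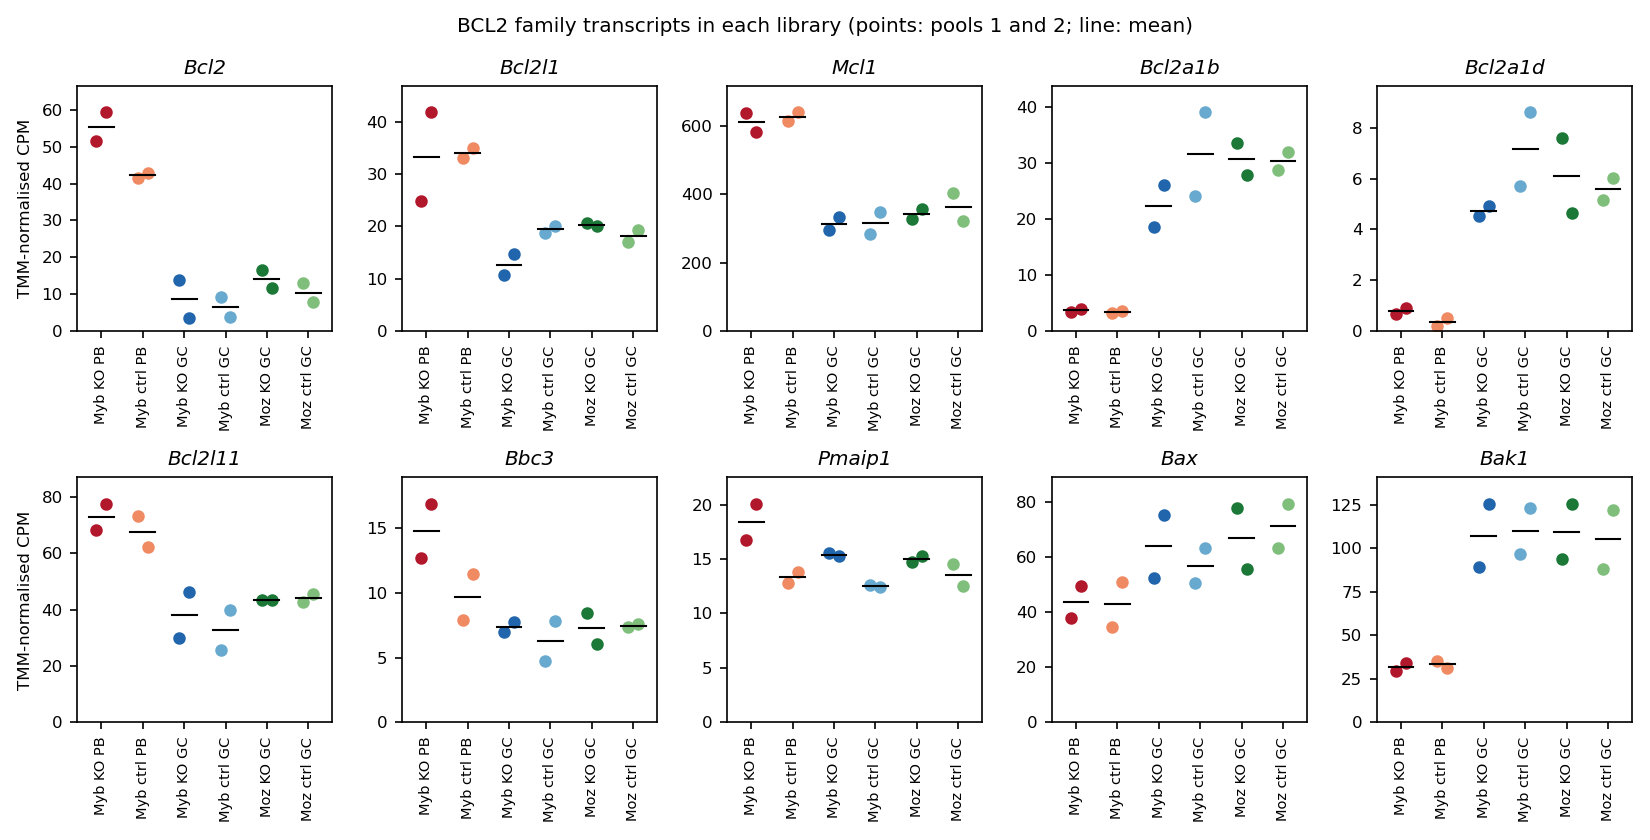
Scaled CPM (TMM-normalised CPM, linear axes that start at 0) of the 10 BCL2 family genes in each of the 12 libraries; points are the pools, with pool 1 left of pool 2, and lines are group means (PB, plasmablasts; GC, GC B cells; KO, knockout; ctrl, control). Bcl2 sits at 41.6 to 59.4 in plasmablasts and at 3.42 to 16.6 in GC libraries, and Bcl2a1b at 3.23 to 3.90 in plasmablasts and at 18.5 to 39.1 in GC libraries. Without TMM scaling, Bcl2l1, Mcl1, Bcl2l11, Bbc3 and Pmaip1 lie lower in plasmablasts than in GC libraries, and Bcl2 overlaps between them.

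Bcl2 (Entrez 12043, GRCm38 chr1 106538176 to 106714290) had 51.7 and 59.4 scaled CPM in Myb knockout plasmablasts and 41.6 and 42.9 in control plasmablasts. In GC B cells the values were 13.8 and 3.42 in Myb knockouts, 9.08 and 3.71 in Myb controls, 16.6 and 11.6 in Moz knockouts and 12.9 and 7.77 in Moz controls. After TMM scaling, every plasmablast library lay above every GC library. By unscaled CPM they overlapped, with 17.0 to 23.3 in plasmablasts and 5.39 to 26.0 in GC libraries. Bcl2 was 6.55-fold higher in control plasmablasts than in control GC B cells (log2 2.71, SE 0.56, edgeR adjusted p = 0.00155), a gap of 2.88 above the change of the median gene. In Myb knockout mice it was 6.40-fold higher (log2 2.68, SE 0.54, edgeR adjusted p = 0.00155). Without TMM scaling Bcl2 did not pass in either (log2 0.59 in Myb knockouts and 0.81 in controls). The size rests on how low the GC pools were: without knockout GC pool 1, the one that goes against its label, the log2 was 4.01, and without knockout GC pool 2 it was 2.00. Without control GC pool 1 it was 3.49, and without control GC pool 2 it was 2.20. In bulk samples, fewer cells that express a gene and less RNA per cell cannot be told apart.

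Mcl1 (chr3 95656944 to 95663179), the pro-survival gene with the highest level, had 640 and 584 scaled CPM in Myb knockout plasmablasts and 615 and 641 in control plasmablasts. Its 8 GC libraries ran from 284 to 405, with no overlap. It was 1.98-fold higher in control plasmablasts than in control GC B cells (log2 0.99, SE 0.22, edgeR adjusted p = 0.00268) and 1.95-fold higher in Myb knockouts (log2 0.96, SE 0.22, edgeR adjusted p = 0.00329), but it was lower without TMM scaling (log2 -0.89 and -1.09). Bcl2l1 (chr2 152758732 to 152833803) had 24.8 and 41.9 scaled CPM in Myb knockout plasmablasts and 33.1 and 35.0 in control plasmablasts, against 10.6 to 20.6 over the GC libraries. Its rise in control plasmablasts was small (log2 0.81, SE 0.25, edgeR adjusted p = 0.0175), turned round without TMM scaling (log2 -1.07) and did not pass without any 1 of the 4 libraries (edgeR adjusted p from 0.0568 to 0.0869, log2 from 0.74 to 0.84). In Myb knockouts it was larger (log2 1.40, SE 0.25, edgeR adjusted p = 0.000725; log2 -0.65 without TMM scaling).

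The A1 copies went the other way. Bcl2a1b (chr9 89199273 to 89207838) had 3.37 and 3.90 scaled CPM in Myb knockout plasmablasts and 3.23 and 3.51 in control plasmablasts. In GC B cells it had 18.5 and 26.0 in Myb knockouts, 24.0 and 39.1 in Myb controls, 33.6 and 27.8 in Moz knockouts and 28.8 and 32.0 in Moz controls. No plasmablast library came near a GC library. Bcl2a1b was 9.36-fold lower in control plasmablasts (log2 -3.23, SE 0.30, edgeR adjusted p = 3.54e-06) and 6.09-fold lower in Myb knockout plasmablasts (log2 -2.61, SE 0.30, edgeR adjusted p = 2.07e-05). Bcl2a1d (chr9 88723288 to 88731850) was near the limit of detection in plasmablasts, with 5 and 8 counts in Myb knockout pools and 2 and 4 in control pools. The Myb GC libraries had 78 and 72 counts in knockouts and 82 and 107 in controls. Its log2 was -4.46 (SE 0.50) in control plasmablasts and -2.57 (SE 0.45) in Myb knockout plasmablasts. Because it passed the filter only through the GC libraries, where it is high, it had to differ here, and its calls are no support. So few counts leave the size of its fold loose: 95% intervals ran from -5.56 to -3.36 and from -3.55 to -1.59.

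The A1 copies are nearly identical, which limits how far their rows can be told apart. The first 120 bases of each open reading frame are shown because they hold 3 of the differences between the copies, written in capitals (GRCm38, GENCODE M21 transcripts, chromosome 9, 5′ to 3′).
Bcl2a1b: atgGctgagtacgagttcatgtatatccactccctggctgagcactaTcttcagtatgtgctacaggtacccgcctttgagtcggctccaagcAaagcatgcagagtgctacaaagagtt
Bcl2a1d: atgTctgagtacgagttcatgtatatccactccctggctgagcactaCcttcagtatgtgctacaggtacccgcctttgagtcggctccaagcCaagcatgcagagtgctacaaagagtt
Over the whole frame of 519 bases the copies differ at 6 positions (98.8% identical), which are G4T, T48C, A94C, G312A, C381G and T490A, counted from 1 at the A of the start codon with the Bcl2a1b base first. Of all 50-base windows of the Bcl2a1b transcript, 57.6% also occur in another A1 copy, and of those of Bcl2a1d, 79.5%. The counting of reads that match several copies was not given in the sources used here, so the level of each copy is uncertain. With the 4 A1 rows of the table (Bcl2a1a, Bcl2a1b, Bcl2a1c and Bcl2a1d) summed, an alternative chosen after seeing the data, the sum was lower in control plasmablasts (log2 -3.30, SE 0.29) and in Myb knockout plasmablasts (log2 -2.60, SE 0.29).

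Among the killers, Bcl2l11 (chr2 128126038 to 128162547) had 68.4 and 77.6 scaled CPM in Myb knockout plasmablasts and 73.1 and 62.3 in control plasmablasts, against 25.6 to 46.2 over the 8 GC libraries. It was 2.08-fold higher in control plasmablasts (log2 1.05, SE 0.25, edgeR adjusted p = 0.00442) but lower without TMM scaling (log2 -0.81). In Myb knockout plasmablasts it was 1.92-fold higher (log2 0.94, SE 0.25, edgeR adjusted p = 0.0085; log2 -1.10 without TMM scaling). Without the library that goes against its label, that call did not pass (log2 0.65, edgeR adjusted p = 0.0807). Bbc3 (chr7 16308398 to 16318334) had 12.7 and 16.9 scaled CPM in Myb knockout plasmablasts and 7.90 and 11.4 in control plasmablasts. In GC B cells it had 6.96 and 7.74 in Myb knockouts and 4.75 and 7.82 in Myb controls. It passed in Myb knockout mice (log2 1.01, SE 0.30, edgeR adjusted p = 0.015; log2 -1.04 without TMM scaling), a call lost without knockout plasmablast pool 2 (log2 0.77, edgeR adjusted p = 0.121) or knockout GC pool 1 (log2 0.93, edgeR adjusted p = 0.073). In controls it did not pass (log2 0.62, 95% interval -0.06 to 1.29, edgeR adjusted p = 0.114), although with the date as a block it did (log2 0.63, edgeR adjusted p = 0.0242). Plasmablasts and GC B cells share no date, so the block does not pair them. It takes out the spread between dates that belongs to the error of this comparison, and the calls gained with it are no support. Pmaip1 (chr18 66458604 to 66465558) passed in neither, with log2 0.09 in controls (95% interval -0.32 to 0.50) and log2 0.26 in Myb knockouts (95% interval -0.15 to 0.66).

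The effectors parted. Bak1 (chr17 27019812 to 27028627) had 29.5 and 34.3 scaled CPM in Myb knockout plasmablasts and 35.2 and 31.4 in control plasmablasts, against 88.1 to 125 over the 8 GC libraries. It was 3.29-fold lower in control plasmablasts (log2 -1.72, SE 0.26, edgeR adjusted p = 0.000169) and 3.36-fold lower in Myb knockout plasmablasts (log2 -1.75, SE 0.26, edgeR adjusted p = 0.000162). Bax (chr7 45461695 to 45466903) had 37.9 and 49.6 scaled CPM in Myb knockout plasmablasts and 34.8 and 51.1 in control plasmablasts, against 50.6 to 79.5 in GC libraries, so the ranges overlap slightly. Its log2 was -0.41 in controls (95% interval -1.02 to 0.20, edgeR adjusted p = 0.232) and -0.55 in Myb knockouts (95% interval -1.16 to 0.06, edgeR adjusted p = 0.118). With that block, which does not pair these libraries, Bax passed in both (edgeR adjusted p = 0.0463 in controls and 0.0162 in Myb knockouts, where 67.8% and 66.7% of all genes passed). The log2 ratio of Bax to Bak1 was not tested as such.

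**Figure D2:**
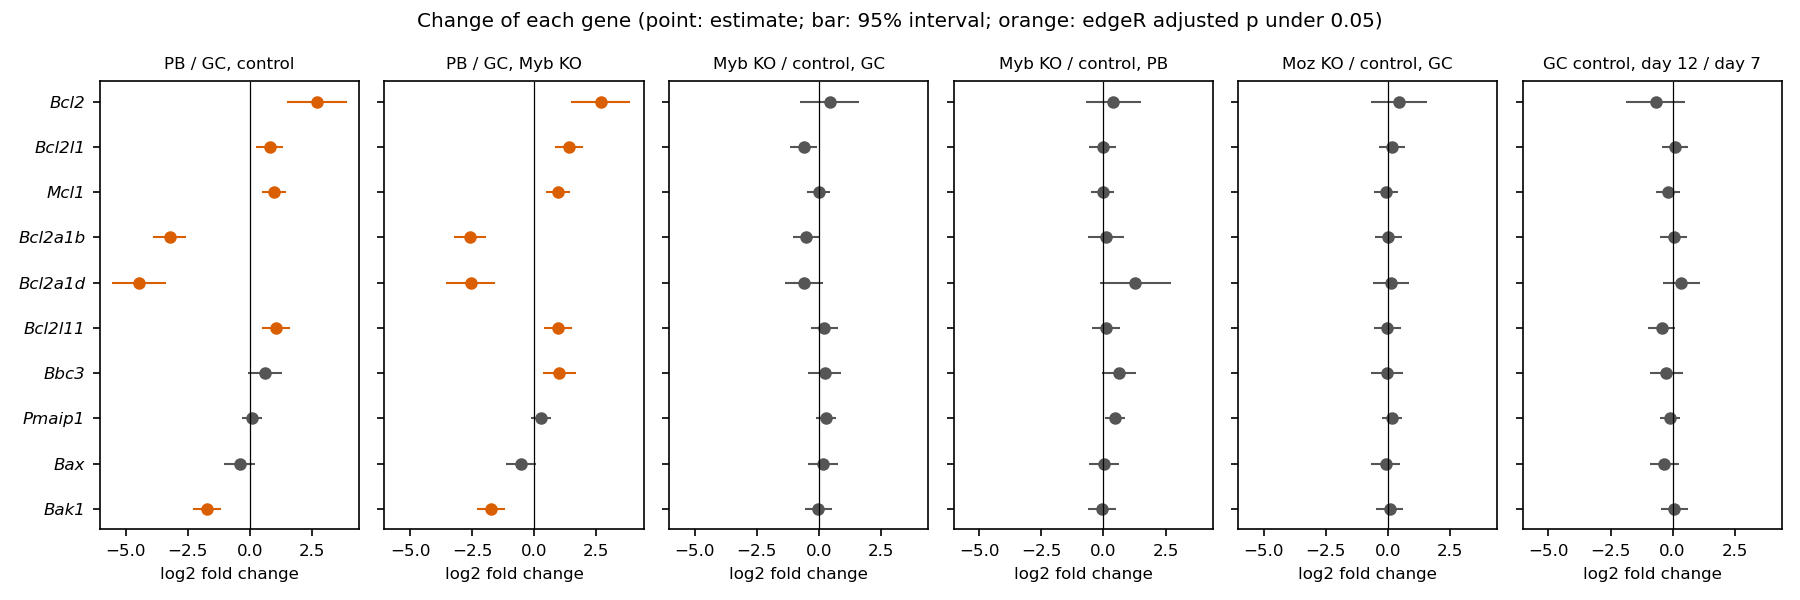
Log2 fold changes of the 10 genes in 6 comparisons (x axis, same scale in each panel); points are edgeR estimates after TMM scaling, bars are 95% intervals and orange marks an adjusted p under 0.05. Orange points occur only in the 2 plasmablast (PB) against GC panels, 7 in controls and 8 in Myb knockouts. Without TMM scaling the points of Bcl2l1, Mcl1, Bcl2l11, Bbc3 and Pmaip1 in those 2 panels fall below 0.

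The scaling matters because immunoglobulin transcripts fill the plasmablast libraries. With library size alone, the median of all genes was -2.04 in controls and -2.21 in Myb knockouts on the log2 scale, against -0.17 in each with TMM, and 0 members were called higher and 9 lower in each. Read against the median gene, the members gave nearly the same values under either scaling. A change of scaling shifts all genes by nearly the same amount, so this likeness follows from arithmetic and is no support. In control plasmablasts, Bcl2 lay 2.88 (TMM) and 2.85 (library size alone) above the median gene, Bcl2l11 1.22 and 1.23, Mcl1 1.15 and 1.15, and Bcl2l1 0.97 and 0.97. Bak1 lay at -1.55 under both scalings, Bcl2a1b at -3.06 and -3.05, and Bcl2a1d at -4.29 and -4.25.

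Ratios between genes within a library need no scaling. Per length of transcript, the Bcl2 to Bcl2a1b ratio was 1.51 ± 0.00505 in Myb knockout plasmablasts and 1.24 ± 0.0451 in control plasmablasts (SD, n = 2 pools). It was 0.0433 ± 0.0428 in Myb knockout GC B cells, or 0.0130 without pool 1, and 0.0233 ± 0.0197 in Myb control GC B cells. In Moz GC B cells it was 0.0450 ± 0.00533 in knockouts and 0.0341 ± 0.0143 in controls. Bcl2 was thus the higher of the pair in every plasmablast library and the lower in every GC library. The Mcl1 to Bak1 ratio was 11.1 ± 1.91 in Myb knockout plasmablasts and 10.9 ± 1.20 in control plasmablasts, and 1.52 to 2.64 over the GC libraries. The Bax to Bak1 ratio was 3.15 ± 0.258 in Myb knockout plasmablasts and 3.01 ± 1.04 in control plasmablasts, and 1.03 to 1.92 over the GC libraries. By contrast, Mcl1 to Bcl2l11 stood at 12.2 ± 1.87 in Myb knockout plasmablasts and 13.5 ± 1.93 in control plasmablasts, inside the range of 10.2 to 16.1 over the GC libraries. The ratio of Mcl1 to Bcl2l11 thus overlapped between the cell types.

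**Figure D3:**
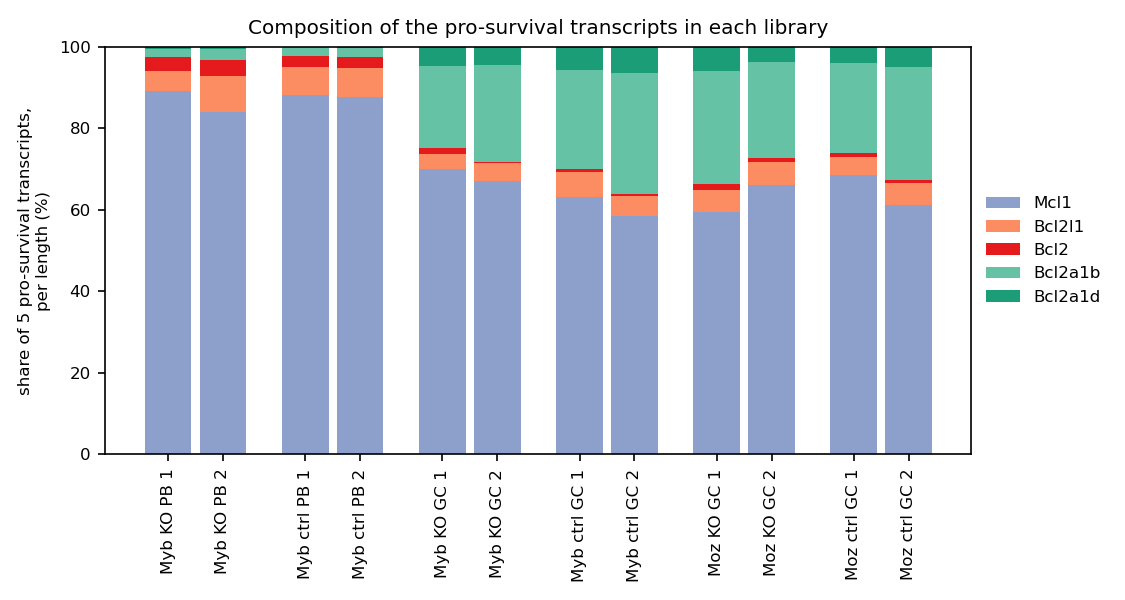
Share of each of the 5 pro-survival transcripts in their sum, per length and in percent (stacked bars from 0 to 100), in each of the 12 libraries (PB, plasmablasts; GC, GC B cells; 1 and 2 are the pools). The A1 copies together hold 2.23% to 3.15% in plasmablast libraries and 24.8% to 36.2% in GC libraries.

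Set together per length, Mcl1 made up 86.6 ± 3.55% of the 5 pro-survival transcripts in Myb knockout plasmablasts and 88.0 ± 0.227% in control plasmablasts. In GC B cells it made up 68.6 ± 2.10% in Myb knockouts, 60.8 ± 3.20% in Myb controls, 62.8 ± 4.80% in Moz knockouts and 64.9 ± 5.25% in Moz controls. Most of the rest in GC B cells was A1. Bcl2a1b and Bcl2a1d together took 2.85 ± 0.428% in Myb knockout plasmablasts and 2.36 ± 0.191% in control plasmablasts. Their share was 26.5 ± 2.45% in Myb knockout, 33.1 ± 4.46% in Myb control, 30.5 ± 4.55% in Moz knockout and 29.4 ± 4.68% in Moz control GC B cells. Bcl2 never exceeded 3.86%, and Bcl2l1 ran from 3.71% to 8.88%. The gap in the share of Mcl1 rests on the correction for length, since the A1 transcripts are short and that of Bcl2 is long. The gap in the share of the A1 copies remained by plain counts, although each share was smaller. By plain counts Mcl1 made up 86.7% in Myb knockout and 88.7% in control plasmablasts, close to its 86.6% in Myb knockout, 83.1% in Myb control, 82.8% in Moz knockout and 84.8% in Moz control GC B cells. By plain counts the A1 copies took 0.629% in Myb knockout and 0.524% in control plasmablasts. They took 7.41% in Myb knockout, 8.70% and 11.3% in the Myb control pools, 8.91% in Moz knockout and 8.53% in Moz control GC B cells.

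Markers of other cell types also moved between the cell types. The 7 myeloid markers summed to 40.7 to 91.1 scaled CPM in plasmablast libraries and 11.5 to 44.1 in GC libraries. Csf1r and Cd68 were the main contributors in plasmablasts, while Lyz2 and Itgam had lower means there than in the Myb GC groups. The 8 T cell markers summed to 4.58 to 7.23 in plasmablasts and 5.21 to 11.4 in GC libraries, with Cd8a at 0 in both Myb knockout plasmablast pools. Of the 6 NK and plasmacytoid dendritic cell markers, summing to 156 to 337 in plasmablasts and 12.9 to 34.7 in GC libraries, nearly all signal in plasmablasts was Bst2, and Ncr1 was at 0 in all 4 plasmablast libraries. Their part in the results was not tested.

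The upstream 250 bases of genes that differed most are shown with matches to 3 short motifs in capitals (RefSeq, GRCm38.p6, 5′ to 3′ on the gene's strand). The motifs are the NF-kB pattern GGGNNNNNCC, the MYB core AACNG and the PU.1 (an ETS factor of B cells) pattern GAGGAAGT, each searched on both strands with no overlapping matches in the 4 windows. The PU.1 pattern was chosen after these promoters had been read.
Bcl2, chr1:106714291-106714540, minus strand: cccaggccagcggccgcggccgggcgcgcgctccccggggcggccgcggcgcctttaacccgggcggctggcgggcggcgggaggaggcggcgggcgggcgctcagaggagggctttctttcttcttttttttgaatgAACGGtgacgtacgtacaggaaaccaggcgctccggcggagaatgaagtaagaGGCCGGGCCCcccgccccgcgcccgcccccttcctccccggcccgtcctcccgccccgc
Bcl2a1b, chr9:89199023-89199272, plus strand: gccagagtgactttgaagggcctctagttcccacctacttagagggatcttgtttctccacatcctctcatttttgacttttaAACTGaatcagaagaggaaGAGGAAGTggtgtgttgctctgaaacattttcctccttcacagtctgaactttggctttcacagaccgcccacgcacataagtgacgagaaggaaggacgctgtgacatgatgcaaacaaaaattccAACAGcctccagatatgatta
Bcl2a1d, chr9:88731851-88732100, minus strand: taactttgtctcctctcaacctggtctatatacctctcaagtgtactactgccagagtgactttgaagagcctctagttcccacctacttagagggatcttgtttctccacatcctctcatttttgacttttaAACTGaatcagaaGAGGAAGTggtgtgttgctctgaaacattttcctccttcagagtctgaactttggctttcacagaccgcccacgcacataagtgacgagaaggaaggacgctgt
Bak1, chr17:27028628-27028877, minus strand: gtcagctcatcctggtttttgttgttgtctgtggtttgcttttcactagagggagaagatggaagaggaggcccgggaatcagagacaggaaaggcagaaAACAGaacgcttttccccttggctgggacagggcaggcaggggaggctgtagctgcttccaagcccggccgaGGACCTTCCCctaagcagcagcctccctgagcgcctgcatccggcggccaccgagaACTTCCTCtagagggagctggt
Over 32851 promoter windows of the same length, 2.44% held the PU.1 pattern, 45.8% the NF-kB pattern and 74.2% the MYB core. The PU.1 pattern was in the windows of Bcl2a1b, Bcl2a1d and Bak1. It was not in those of Bax, whose values were also lower in plasmablasts, or of the other members searched, and no window of Pmaip1 was searched. Since the pattern was picked from these promoters, its presence there supports nothing. The A1 promoters are themselves copies (247 of 256 aligned positions identical, 96.5%), so they are not separate instances. A match is a description of letters and not of binding.

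No member passed for loss of Myb in GC B cells (edgeR, 0 of 10, beside 0.259% of all genes), and 1 had an unadjusted p under 0.05, beside 5.75% of genes. DESeq2 also called 0. That gene was Bcl2l1, with 10.6 and 14.8 scaled CPM in knockout and 18.7 and 20.2 in control pools (log2 -0.62, SE 0.25, 95% interval -1.17 to -0.06, edgeR adjusted p = 0.703). The pools did not overlap, as was so for 11.8% of all genes in that direction, and the knockout was lower on both dates (log2 ratios -0.82 and -0.45). Without knockout pool 1 its log2 was -0.39. Both A1 copies were also lower on both dates, at log2 -0.50 (SE 0.25, 95% interval -1.06 to 0.05; -0.28 without knockout pool 1) for Bcl2a1b and -0.60 (SE 0.34, 95% interval -1.35 to 0.15) for Bcl2a1d, and neither passed (edgeR adjusted p = 0.987 and 1). These values leave the shared dates out of the fit. With the date as a block, which pairs these pools, 0 members passed in edgeR. In that fit 2 had an unadjusted p under 0.05, beside 1532 of 13131 genes. They were Bcl2l1 (log2 -0.63, SE 0.18, edgeR adjusted p = 0.116) and Bcl2a1b (log2 -0.49, SE 0.14, edgeR adjusted p = 0.144).

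For the other members of this comparison, log2 fold changes ran from -0.03 for Bak1 (0.20 without knockout pool 1) to 0.43 for Bcl2. Bcl2 had 13.8 and 3.42 scaled CPM in knockout and 9.08 and 3.71 in control GC pools, so the pools overlap, and the sign turned between the dates (0.60 and -0.12). Without knockout pool 1 its log2 was -0.91. Pmaip1 had 15.5 and 15.3 scaled CPM in knockout and 12.6 and 12.4 in control pools (log2 0.30, SE 0.18, edgeR adjusted p = 1). Mcl1 had log2 -0.01 (95% interval -0.49 to 0.46; 0.07 without knockout pool 1). For 6 of 10 members the sign was the same on both dates, and the share of all genes with this was not counted. The 8 plasmablast markers summed to 1319 and 1850 scaled CPM in knockout and 926 and 1476 in control GC pools, and their part in these values was not tested.

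In plasmablasts, loss of Myb also left every member short of the threshold (0 of 10, beside 0.0381% of all genes; 1 at an unadjusted p under 0.05, beside 3.78%; 0 by DESeq2). The estimates furthest from 0 were higher in the knockout. Bcl2a1d had log2 1.29 (SE 0.65, 95% interval -0.14 to 2.72), from 13 counts in knockout and 6 in control pools, a ratio of 2.36 with a 95% interval of 0.835 to 7.56 that covers counting error only. The killers Bbc3 and Pmaip1 came next. Bbc3 had 12.7 and 16.9 scaled CPM in knockout and 7.90 and 11.4 in control plasmablasts (log2 0.62, SE 0.30, 95% interval -0.04 to 1.29), and Pmaip1 had 16.7 and 20.1 in knockout and 12.8 and 13.8 in control (log2 0.47, SE 0.19, 95% interval 0.05 to 0.88). For both, the knockout pools lay above the control pools on both dates, as pools did for 13.6% of all genes in that direction, and the edgeR adjusted p was 1. Bcl2 had log2 0.40 (95% interval -0.72 to 1.51). Mcl1, Bcl2l1, Bax and Bak1 had log2 fold changes from -0.06 to 0.03. Fitted with the date as a block, which pairs these pools, 0 members passed in edgeR. In that fit 3 had an unadjusted p under 0.05, beside 1226 of 13131 genes. They were Bbc3, Pmaip1 and Bcl2 (edgeR adjusted p = 0.331, 0.333 and 0.427).

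Whether the effect of Myb differed between the cell types was tested as an interaction. No member passed (0 of 10, beside 0.00762% of genes; 1 at an unadjusted p under 0.05, beside 3.72%). That was Bcl2a1d, whose change in plasmablasts exceeded that in GC B cells by log2 1.89 (SE 0.74, 95% interval 0.27 to 3.51, edgeR adjusted p = 1), again on the few counts in plasmablasts. Bcl2a1b had 0.62 (SE 0.42) and Bcl2l1 0.59 (SE 0.35), or 0.39 and 0.37 without knockout GC pool 1, and Bcl2 had -0.04, or 1.30 without that pool. With DESeq2 the count was also 0. It was 0 as well in edgeR with the date as a block, which pairs knockout and control pools. In that fit 2 members, Bcl2a1d and Bcl2l1, had an unadjusted p under 0.05, beside 1016 of 13131 genes (edgeR adjusted p = 0.620 and 0.629).

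Loss of Moz gave no call among the 10 genes in day 7 GC B cells (edgeR, 0 of 10, beside 0% of all genes; 0 at an unadjusted p under 0.05, beside 2.4%; 0 by DESeq2, which called 11 genes in all). Log2 fold changes ran from -0.10 for Bax to 0.45 for Bcl2. Bcl2 had 16.6 and 11.6 scaled CPM in knockout and 12.9 and 7.77 in control pools (log2 0.45, SE 0.51, 95% interval -0.67 to 1.57). The knockout was above the control on both dates (0.37 and 0.58), although the pools overlap across dates. When the date was a block, which pairs these pools, Bcl2 had log2 0.47 (SE 0.15, edgeR adjusted p = 0.293). In that fit 0 members passed, and Bcl2 was the 1 member with an unadjusted p under 0.05, beside 1339 of 13131 genes. Bcl2l11 had 43.4 and 43.4 scaled CPM in knockout and 42.8 and 45.7 in control pools (log2 -0.03, 95% interval -0.57 to 0.52), and Bak1 93.7 and 125 in knockout and 88.1 and 122 in control (log2 0.06, 95% interval -0.48 to 0.60). The sign was the same on both dates for 4 of 10 members, and the share of all genes with this was not counted. With 2 pools a group the precision differed between members: the 95% interval of the log2 was widest for Bcl2 and narrowest for Pmaip1 (-0.24 to 0.54).

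Day 12 and day 7 control GC B cells were also set side by side. They differ in day, genotype, cre and experiment, which cannot be told apart. No member passed (0 of 10, beside 1.38% of genes; 0 at an unadjusted p under 0.05, beside 7.78%). With the date as a block, 2 were lower on day 12, beside 4.06% of genes in that direction: Bcl2 (log2 -0.84, edgeR adjusted p = 0.0184) and Bcl2l11 (log2 -0.47, edgeR adjusted p = 0.049). Bcl2 had 9.08 and 3.71 scaled CPM on day 12 and 12.9 and 7.77 on day 7. Bcl2l11 had 25.6 and 39.7 on day 12 and 42.8 and 45.7 on day 7. Without the block their edgeR adjusted p was 1 and 0.848. The 2 experiments share no date, so the block takes out the spread between dates that belongs to the error here, and these gained calls are no support. The Bcl2 pools of the days overlap.

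**Figure D4:**
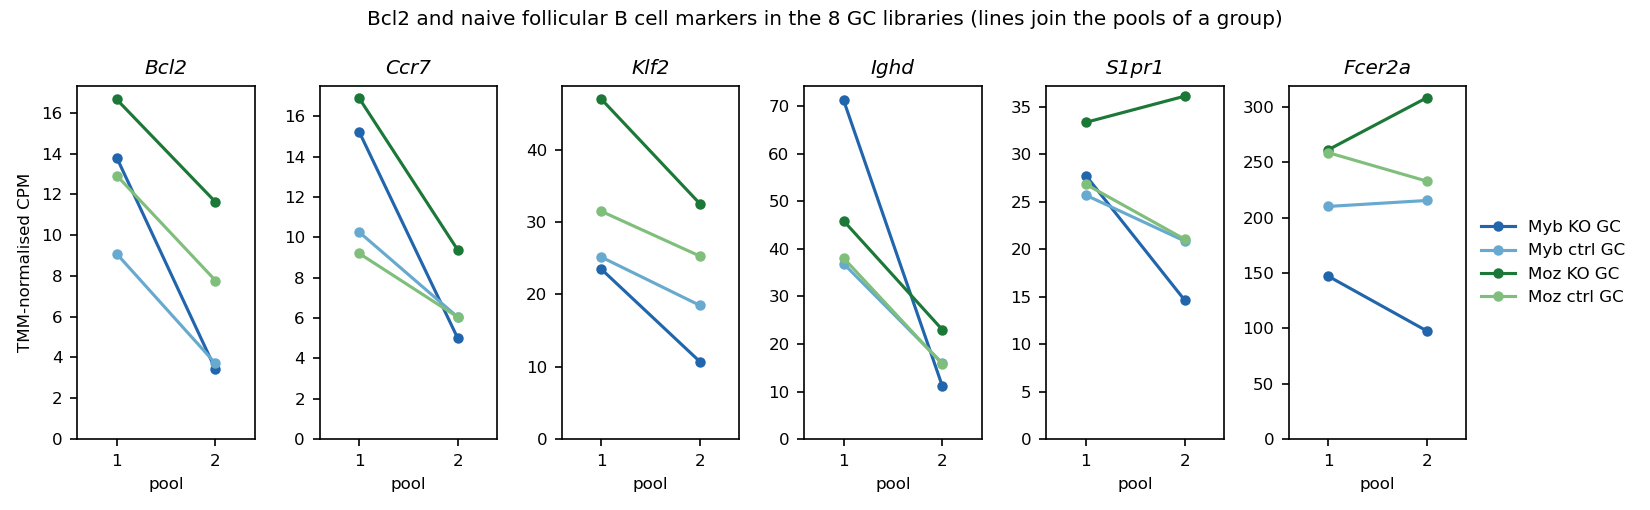
Scaled CPM (TMM-normalised CPM, linear axes from 0) of Bcl2 and 5 markers of naive follicular B cells in pools 1 and 2 of the 4 GC groups; lines join the pools of a group (KO, knockout; ctrl, control). Bcl2, Ccr7, Klf2 and Ighd are higher in pool 1 in 4 of 4 groups, S1pr1 in 3 and Fcer2a in 2.

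Within the GC groups, Bcl2 varied more between pools than between genotypes. Pool 1 was above pool 2 in 4 of 4 groups. Knockout and control pools of the same number share their dates, so these are not 4 separate instances. The naive B cell genes Ighd, Ccr7 and Klf2 were also higher in pool 1 in 4 of 4 groups, but S1pr1 was so in 3 and Fcer2a in 2. The share of all genes with that order was not counted. In Myb knockout GC B cells, for example, Ccr7 had 15.2 and 5.00 scaled CPM and Ighd 71.2 and 11.2, where Bcl2 had 13.8 and 3.42. Bcl2 is known to be higher in naive than in GC B cells. Ighd, Ccr7, Klf2, S1pr1 and Fcer2a summed to 42.0 to 193 scaled CPM in plasmablast libraries and 139 to 409 over the GC libraries. Their part in the level of Bcl2 was not tested. Bak1 went the other way, with pool 1 below pool 2 in each of the 4 groups. Bcl2l11 did so in both Myb groups, but its pools were level in Moz knockouts (43.39 and 43.42 scaled CPM). By unscaled CPM its pool 1 was the higher in Moz knockouts (67.7 and 64.6) and in Moz controls (67.9 and 66.1). The pool numbers mark different dates in each experiment.

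Other genes of the pathway were taken from 6 lists, 41 genes in all, of which 38 passed the filter. In control plasmablasts 9 were higher and 13 lower than in control GC B cells after TMM scaling, against 3 higher and 30 lower with library size alone, and the median log2 was -0.31 beside -0.17 over all genes. These shares are near those of all genes tested, of which 25% were higher and 28.1% lower. In Myb knockouts the counts were 9 higher and 13 lower, against 3 higher and 32 lower with library size alone, with a median of -0.33, where 24.4% of all genes were higher and 27.2% lower. Bcl2l2, Tnfrsf1a and Irf4 were the 3 that passed as higher under either scaling in both genotypes. The lists were chosen with earlier results of these data known.

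Of the other pro-survival members, Bcl2l2, which encodes BCL-W, had 35.3 and 35.3 scaled CPM in plasmablasts and 4.00 and 3.70 in GC B cells of Myb knockouts (log2 3.19, SE 0.26). In controls it had 27.6 and 37.8 in plasmablasts and 3.14 and 2.58 in GC B cells (log2 3.50, SE 0.27, edgeR adjusted p = 1.01e-06), a rise larger than that of Bcl2. Bcl2a1c, another A1 copy, had 0 counts in all 4 plasmablast libraries, against 14 counts in Myb knockout and 16 in Myb control GC B cells. Against a floor of 3 counts per group it was at least 2.41-fold lower in Myb knockout and at least 3.81-fold lower in control plasmablasts. Because Bcl2a1c passed the filter only through GC libraries, it had to come out lower here. Its place among the list genes called lower in each genotype is therefore no support. As for the other A1 copies, the handling of reads that match several copies was not given, so its level is uncertain. Of the other killers, Bid, cut by caspase-8 to link death receptors to mitochondria, was lower in plasmablasts of both genotypes (log2 -1.57, SE 0.17, in Myb knockouts and -1.36, SE 0.17, in controls), as was Bad (log2 -1.04, SE 0.27, in Myb knockouts and -1.26, SE 0.27, in controls). Bmf, a BH3-only gene, was higher in Myb knockout plasmablasts after TMM scaling and lower without it (log2 1.30, SE 0.22, edgeR adjusted p = 0.000447; log2 -0.75 without), while its log2 was 0.33 in controls (SE 0.22, edgeR adjusted p = 0.23), and the difference between the genotypes did not pass.

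**Figure D5:**
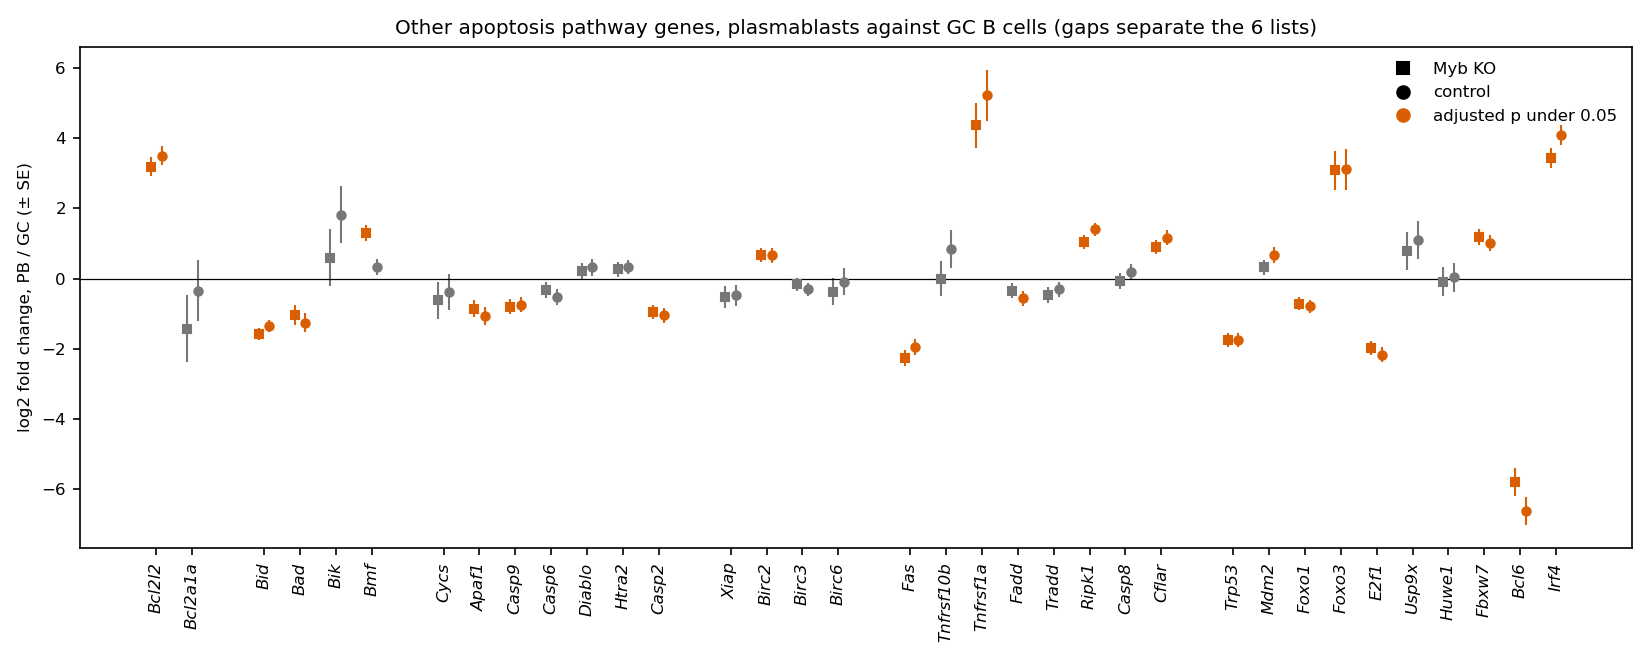
Log2 fold change, plasmablasts (PB) over GC B cells after TMM scaling, on the y axis, of 35 further apoptosis genes in 6 lists along the x axis (gaps separate lists); squares are Myb knockouts, circles controls, bars 1 SE, and orange marks an edgeR adjusted p under 0.05. Bcl2a1c, at 0 in plasmablasts, is left out. Bcl6 and Irf4 lie furthest from 0 on the right, and of the 7 caspase and apoptosome genes drawn 3 pass in Myb knockouts and 3 in controls, each below 0. Without TMM scaling every point but those of Bcl2l2, Tnfrsf1a, Foxo3 and Irf4 lies below 0.

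Downstream of the mitochondria, 5 of 9 apoptosome and caspase genes were lower in Myb knockout plasmablasts and 4 in control plasmablasts, with 0 higher in either, beside 27.2% and 28.1% of all genes called lower in those comparisons. Apaf1, the scaffold of the apoptosome, had log2 -0.86 (SE 0.26) in Myb knockouts and -1.08 (SE 0.26) in controls. Casp2 had -0.96 (SE 0.21) in Myb knockouts and -1.05 (SE 0.21) in controls. Casp9, which encodes the initiator activated by the apoptosome, had -0.80 (SE 0.21) in Myb knockouts and -0.75 (SE 0.21) in controls. Of 4 inhibitors of apoptosis, Birc2 (cIAP1) was higher after TMM scaling (log2 0.67, SE 0.21, in Myb knockouts and 0.66, SE 0.21, in controls) and lower without it (log2 -1.39 in Myb knockouts and -1.23 in controls).

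In the death receptor arm, 3 of 8 genes were higher in each genotype after TMM scaling (1 without it, Tnfrsf1a), and 2 were lower in controls and 1 in Myb knockouts. Of all genes tested after TMM scaling, 25% were higher and 28.1% lower in controls, and 24.4% and 27.2% in Myb knockouts. Beside such shares, counts among 8 genes say little by themselves. Fas, a death receptor that also marks GC B cells, had log2 -2.26 (SE 0.23) in Myb knockouts and -1.96 (SE 0.22) in controls. Since Fas is on the list of GC markers, its place among the lower genes is no finding here. Tnfrsf1a, which encodes a TNF receptor, had 128 counts in Myb knockout plasmablasts and 12 in Myb knockout GC B cells, a scaled ratio of 20.7 (95% interval 11.4 to 41.1, counting error only). In controls it had 134 and 5 counts (ratio 37.5, 95% interval 15.7 to 117). Its level of 6.11 to 8.28 scaled CPM in plasmablasts is modest. Of the myeloid markers, Csf1r, Cd68 and Adgre1 also had higher means in plasmablasts, whereas Lyz2 and Itgam had lower means there than in Myb GC B cells. S100a8 and S100a9 were near the floor. The part of such cells in the level of Tnfrsf1a was not tested. Ripk1 and Cflar, which encodes the caspase-8 inhibitor FLIP, were also higher after TMM scaling (log2 1.04 and 0.90 in Myb knockouts, 1.40 and 1.17 in controls), whereas without it their log2 values were negative (-1.02 and -1.16 in Myb knockouts, -0.48 and -0.71 in controls).

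Among upstream regulators, Irf4 and Bcl6, markers of the 2 cell types and therefore no finding here, had log2 3.44 and -5.81 in Myb knockouts and 4.10 and -6.63 in controls. Foxo3, whose protein induces BIM and PUMA in other cells, was higher (log2 3.08, SE 0.57, in Myb knockouts and 3.12, SE 0.58, in controls), and without TMM scaling it kept its sign but did not pass (log2 1.03, edgeR adjusted p = 0.129 in Myb knockouts, and log2 1.25, edgeR adjusted p = 0.0779 in controls). E2f1 was lower (log2 -1.98, SE 0.21, in Myb knockouts and -2.18, SE 0.21, in controls). No gene of the 6 lists passed in the Myb or Moz knockout comparisons (0 of 38 in each; 3, 2 and 3 at an unadjusted p under 0.05 in Myb GC B cells, Myb plasmablasts and Moz GC B cells). With the date as a block, Irf4, which is also on the plasmablast marker list, was higher in Myb knockout GC B cells (edgeR adjusted p = 0.0371). In that fit 318 of 13131 genes passed. Irf4 had 62.6 and 51.7 scaled CPM in knockout and 37.4 and 34.4 in control GC pools.

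The genes whose pattern over the 6 group means was nearest to that of the 3 members with the widest range were found by the root mean square difference of centred log2(scaled CPM + 0.5). For Bcl2a1d these were Blk (0.12), Ccdc138 (0.13) and Diaph3 (0.15). Bcl2 was nearest to Mgst2 (0.11), Sla (0.14) and Foxo3 (0.15), and Bcl2a1b to Sox5 (0.07), Ttyh3 (0.11) and Fhl3 (0.11). Blk, a B cell kinase of the Src family, had 39.1 and 28.0 scaled CPM on average in Myb knockout and control plasmablasts and 196 to 228 in the 4 GC groups. These are descriptions over 6 points, most of whose spread lies between plasmablasts and GC B cells.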

How the data were processed

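The deposited values are raw read counts per gene for each of 12 libraries of polyadenylated RNA, made by the authors. The submitters' processing notes name featureCounts and the build mm10, while the aligner, strand setting and handling of reads with several matches were not given in the sources used here. Gene IDs were paired with symbols for 25275 of 27179 rows. Counts were tested with edgeR 4.0.16 (R 4.3.3; TMM factors, filterByExpr with a minimum count of 10, robust quasi-likelihood F test, two-sided, Benjamini-Hochberg over 13131 genes, threshold 0.05) in 1 fit of 6 group means with 6 residual degrees of freedom. The common dispersion gave a biological coefficient of variation of 0.2205. The code was tested on simulated data. Depth was 8285934 to 24801297 counts per library, and intervals of counts cover counting error only. Pools are separate groups of mice. Alternatives were the experiment date as a replicate block, DESeq2 1.42.0, other scalings, no filter (minimum total 1), immunoglobulin genes left out, the compared groups alone and each library left out. The pool numbers pair knockout and control pools, since the labels give them the same dates; their deviations correlated at 0.453, 0.600 and 0.361 in the 3 experiments. All 10 members are described, and list genes are named where they passed in a plasmablast comparison, at most 4 per list and comparison by size; 3 list or marker genes are not reported here by name. Members, lists and tests were chosen with earlier results of these data known.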

Additional observations from a re-analysis of the deposited data

How the results depend on the processing

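Under every setting tried, no member passed in the Myb or Moz knockout comparisons or in the interaction, and Bcl2a1b, Bcl2a1d and Bak1 stayed lower and passed in plasmablasts against GC B cells. Bcl2a1d passed the filter only through its GC libraries, so its calls are no support. The count of members passing there was 7 in controls and 8 in Myb knockouts with DESeq2, RLE factors, immunoglobulin genes left out, no low-count filter and the compared groups alone, 9 in each with the replicate block and with library size alone, and 6 to 6 and 6 to 8 with 1 library left out. The replicate block called 2 members lower on day 12 than on day 7, and Bbc3 (controls) and Bax (both) in plasmablasts against GC B cells, and changed no other call of a member. None of these comparisons shares dates between its groups, so the block pairs nothing there.

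Counts over all genes moved more. For Myb knockout against control GC B cells, Myb plasmablasts, Moz GC B cells, the interaction and day 12 against day 7, in that order, they were 34, 5, 0, 1 and 181. They were 318, 76, 39, 71 and 719 with the replicate block, 161, 50, 11, 45 and 358 with DESeq2, and 320, 104, 55, 136 and 501 without the low-count filter. With the compared groups alone the Myb GC, Myb plasmablast and interaction counts were 0 each (510, 359 and 407 genes at an unadjusted p under 0.05), and day 12 against day 7 gave 104. With immunoglobulin genes left out the counts were 22 for Myb GC B cells, 0 for Myb plasmablasts (411 at an unadjusted p under 0.05) and 105 for day 12 against day 7. With 1 library left out they ran from 0 to 39, 0 to 2, 0 to 3, 0 to 3 and 19 to 105. With library size alone, 10985 genes passed in control and 11278 in Myb knockout plasmablasts against GC B cells, nearly all lower.

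Library size alone turned 5 members to lower in plasmablasts. In controls the log2 values were -1.79 for Pmaip1, -0.81 for Bcl2l11, -1.07 for Bcl2l1, -0.89 for Mcl1 and -1.26 for Bbc3. In Myb knockouts they were -1.80 for Pmaip1, -1.10 for Bcl2l11, -0.65 for Bcl2l1, -1.09 for Mcl1 and -1.04 for Bbc3. By construction this scaling carries the immunoglobulin share of the plasmablast libraries into every other gene. Values close to 0 changed sign too: with library size alone Bak1 (0.046) and Mcl1 (0.072) in Myb GC B cells, Bax (-0.043) in Myb plasmablasts and Pmaip1 (-0.0050) in the interaction, with the replicate block Bcl2 (0.036) in the interaction, and with the compared groups alone Bcl2l11 (0.0034) in Moz GC B cells. That last fit filtered Bcl2a1d out in Myb plasmablasts and gave no value.

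With 1 library left out, 26 estimates that had not passed changed sign. In Myb GC B cells the ranges were -0.91 to 1.22 for Bcl2, -0.31 to 0.20 for Bak1, -0.16 to 0.13 for Mcl1, -0.14 to 0.56 for Bcl2l11, -0.12 to 0.41 for Bax and -0.093 to 0.62 for Bbc3. In Myb plasmablasts they were -0.19 to 0.074 for Bak1, -0.47 to 0.33 for Bcl2l1, -0.075 to 0.015 for Mcl1, -0.22 to 0.35 for Bax and -0.0060 to 0.25 for Bcl2a1b. In Moz GC B cells they were -0.26 to 0.47 for Bcl2a1d, -0.13 to 0.17 for Bcl2a1b, -0.16 to 0.31 for Bak1, -0.30 to 0.20 for Bbc3, -0.36 to 0.15 for Bax, -0.24 to 0.088 for Mcl1 and -0.076 to 0.019 for Bcl2l11. In the interaction they were -0.83 to 1.30 for Bcl2, -0.26 to 0.25 for Bak1, -0.44 to 0.25 for Bcl2l11, -0.38 to 0.19 for Bax and -0.16 to 0.12 for Mcl1. Between the days they were -0.64 to 0.064 for Bbc3, -0.16 to 0.31 for Bak1 and -0.33 to 0.36 for Bcl2a1b. The cause of these shifts was not tested. Where an arm had 1 library left, its spread was taken from the other groups.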
